A study of Bos taurus with 24 samples.

Results

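Cytosolic ribosomal proteins were followed across 16 bovine ovarian follicles. The members were every array feature that the platform annotation gives a single gene symbol made of RPL or RPS and a number, or RPSA, RPLP0, RPLP1 or RPLP2, with kinases, binding proteins and paralogues of like name left out. The rule found 250 features of 61 genes, 23 of the 40S and 38 of the 60S subunit, among 9425 named genes. A further 7 ribosomal protein genes (RPL35, RPLP0, RPL12, RPS26, RPS27, RPL17 and RPL32) occurred only on features that carry several symbols and were not used. All 61 genes had values on at least 20 of the 24 arrays, and 60 of them on all 24.

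Each follicle was the largest one, 8 to 12 mm across, of a different heifer, and total RNA of 2 follicles was set against each other on each of 24 two-colour arrays, so that every follicle lay on 3 arrays. Follicles carry an identifier in the labels (8, 26, 27, 31, 33, 46, 861, C10, C12, C13, C22, C26, C32, C35, H893 and J980) and are given no treatment, genotype or other group, so the comparison is between follicles. The RNA was of whole follicles, in which fewer cells of a type and less RNA per cell cannot be told apart. An array ratio holds no absolute level, so the presence of a cell type cannot be read from its markers.

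The cytosolic ribosome is built of a small 40S subunit, which reads the mRNA, and a large 60S subunit, which joins amino acids. Its proteins are made in near equal amounts, and their mRNAs share a pyrimidine-rich start that lets growth signalling through mTOR raise or lower their translation together. Granulosa cells of a growing follicle divide and secrete, both of which draw on ribosomes, and several of these genes serve as reference genes for PCR in such tissue. Ribosomal protein genes have many processed pseudogenes and near-identical copies, so a spotted sequence can take up RNA of more than the named gene.

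The values are log ratios of Cy5 over Cy3, taken as log2. A gene's level in a follicle is its fitted deviation from the mean of the 16 follicles, after all features of the gene were averaged on each array, and its standard error (SE) comes from array error alone, since each animal gave 1 follicle. Whether a gene differed between follicles was asked by limma's moderated F test on the 15 free follicle effects, adjusted by Benjamini-Hochberg over all genes tested, with calls at 0.05. If the deposited ratios run Cy3 over Cy5, every sign below turns, and the F tests and correlations stay as they are.

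The name of a member did not settle how its features behaved, and this touches every value below. Of the 250 features, 182 are named by a single sequence accession that begins with the letters AV, called AV features here, and 68 are named in other ways. This division was chosen after the values were seen. It reaches beyond ribosomal proteins: 921 named AV features were tested in all, and all 921 have 1, 2 or 3 as the middle number of their array identifier, as do 346 of 11873 other named features. That number is part of the deposited identifier, and its meaning is not known here. Among AV features of ribosomal proteins, 538 pairs that carry the same gene symbol had a median correlation of 0.10 over the 16 follicles, and 13323 pairs that carry different ribosomal protein symbols had one of 0.12. Features of the same gene were thus no more alike than features of different genes. Among the remaining features, 19 pairs of the same ribosomal protein gene had a median correlation of 0.602, against 0.116 for 1997 pairs of different genes. AV features paired with other features of the same gene had a median of 0.082 over 161 pairs. RPSA, a 40S protein also known as the laminin receptor precursor, shows the spread. Its tested AV features lay anywhere from -1.11 to 0.59 in J980, and its only other feature lay at 0.42.

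By AV features the mean of the ribosomal proteins moved between follicles, and it moved with AV features of all other genes. Over 45 genes it was lowest in J980, at -0.229 ± 0.072 (SE, 3 arrays), and in C13, at -0.198 ± 0.071, and highest in C26, at 0.143 ± 0.065, and C35, at 0.142 ± 0.071. The mean of the 585 other genes with AV features was -0.229 in J980, -0.196 in C13, 0.127 in C26 and 0.112 in C35. Over the 16 follicles these means had a correlation of 0.976. The movement seen by AV features was therefore shared with genes outside the family: the median correlation of a single ribosomal protein with the mean of the others was 0.53, and that of a single other gene with the same mean was 0.468. What gives AV features their common movement was not tested.

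By the remaining features the ribosomal proteins had another order of follicles. The mean over 49 genes was lowest in follicle 8, at -0.178 ± 0.063 (SE, 3 arrays), followed by C22, at -0.092 ± 0.060, and 33, at -0.091 ± 0.056. It was highest in C10, at 0.096 ± 0.056, in H893, at 0.095 ± 0.063, and in C12, at 0.095 ± 0.062. J980 lay inside this range, at -0.051 ± 0.062. Its correlation with the AV-feature mean of the same family was 0.151 over 16 follicles. The SD between follicles was 0.0772, close to the SE of a single follicle, so most neighbours in this order do not differ beyond their error.

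**Figure D1:**
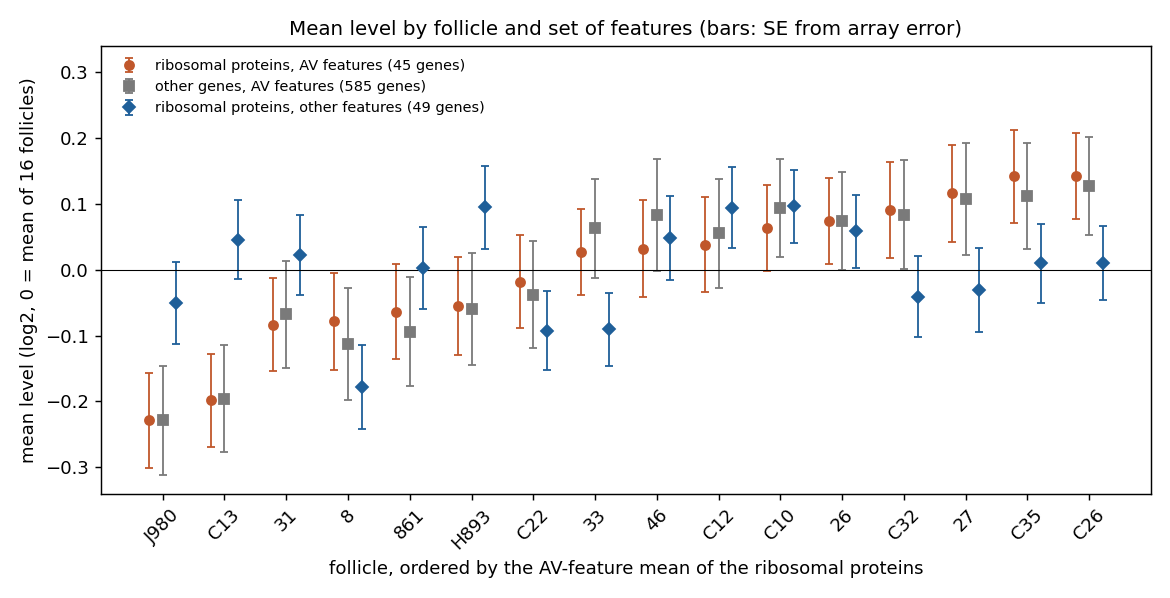
Mean level (log2, vertical axis) in each of the 16 follicles (horizontal axis) of the ribosomal proteins by AV features, of other genes by AV features, and of the ribosomal proteins by other features, with bars for the SE from array error over 3 arrays. The first pair of series moves together from -0.229 in J980 to 0.143 and 0.127 in C26, and the third does not follow them.

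With all features averaged, as the comparison was planned, the mean over 61 genes ran from -0.145 ± 0.067 in J980 and -0.121 ± 0.069 in follicle 8 to 0.081 ± 0.060 in C26. Its SD between follicles was 0.0706, against a median SE of 0.0663. This average mixes both patterns above, and its spread over follicles was about as large as the error of one follicle. The median SD of a single member was 0.158, against 0.169 over all genes tested, with array errors of 0.168 and 0.184.

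Genes of the small and large subunits rose and fell together by either set of features, and by AV features they did so with other genes too. By features other than AV, the means of 20 genes of the 40S and 29 genes of the 60S subunit had a correlation of 0.885 over 16 follicles (Spearman's rho 0.876), and 0.809 without follicles 8 and C22, which lie farthest from the median. In follicle 8 the 40S mean was -0.183 and the 60S mean -0.175. In C10 they were 0.106 and 0.0895. By AV features the correlation was 0.862, and 0.72 without J980 and C13. The AV-feature mean of the ribosomal proteins had one of 0.976 with that of the 585 other genes, so the value of 0.862 is not particular to the subunits. The points share arrays, and an error of an array enters both means. The single members followed the family in part. By the features other than AV, 19 of 49 had a correlation above 0.5 with the mean of the other members (38.8%), and 9 had one below 0. Of the other genes 7.81% had a correlation above 0.5 with the ribosomal mean. The median was 0.403 for members and -0.016 for other genes.

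**Figure D2:**
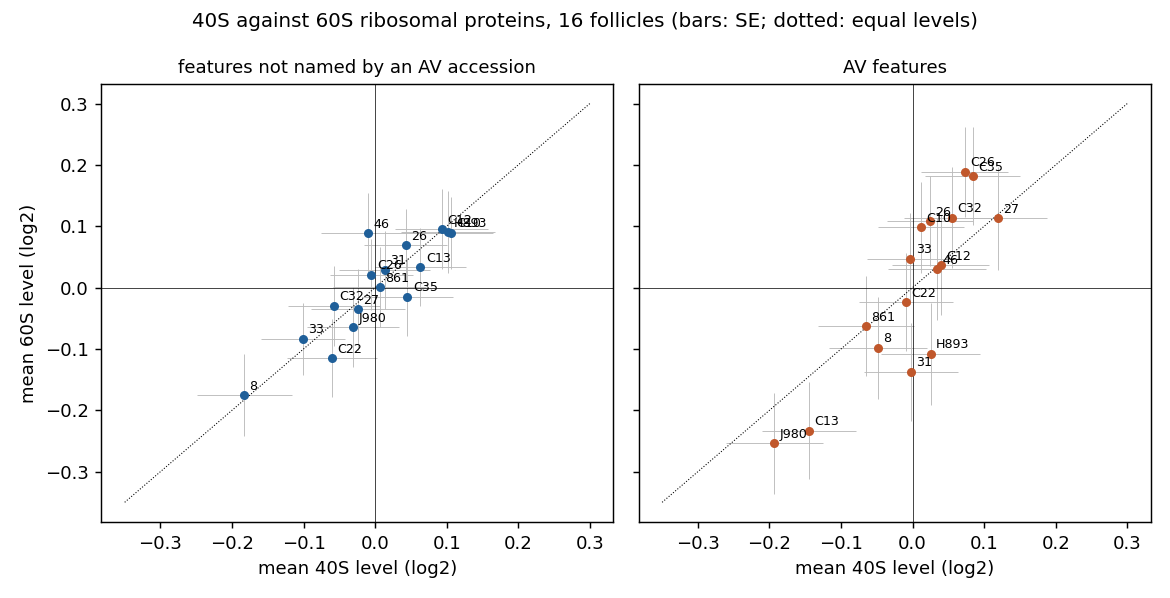
Mean level of the 60S proteins (log2, vertical axis) against that of the 40S proteins (log2, horizontal axis) in 16 follicles, by features other than AV on the left and by AV features on the right, with SE bars and a dotted line of equal levels. On the left follicle 8 is lowest in both subunits, and on the right J980 is lowest in both.

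Few members differed between follicles beyond array error. With all features averaged, 9 of 61 passed the F test (14.8%), where 11.3% of all 9031 genes did. They were RPS13, RPS28 and RPS29 of the 40S subunit and RPL14, RPL19, RPL27A, RPL30, RPL31 and RPL37A of the 60S subunit. At an unadjusted p under 0.05 there were 23 members (37.7%), against 26% of all genes. After each array was centred on the median of the ribosomal proteins, 6 of the 61 (9.84%) still differed, where 8.57% of all genes did, and these were RPL14, RPL27A, RPL30, RPL31, RPS13 and RPS29. The count over all features also depended on single arrays. Without the array of 33 and C13 it was 3, without that of 26 and J980 it was 4, without that of H893 and 31 or of 31 and C10 it was 5, and without that of J980 and 8 it was 18. In the last of these fits 12.4% of all genes were called, and the shares in the others are not given here. The calls of RPL14, RPL27A and RPS28 held in 4, 6 and 3 of the 24 fits that leave out 1 array, and those of the other 6 genes in at least 20. At the level of single features 47 of 231 passed (20.3%), against 12.2% of all features. Both shares follow the kind of feature: 22.2% of the 167 tested AV features of ribosomal proteins passed, as did 23.5% of AV features of other genes, and 15.6% of the 64 remaining member features passed, against 11.2% of other named features.

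The calls depended on which features were read. By AV features alone 10 of 45 members differed (22.2%), where 29.5% of the 630 genes with such features did. By the remaining features 5 of 49 members differed (10.2%), where 11.3% of 8897 genes did. The 5 were RPS29, RPS28, RPS2, RPS9 and RPLP2. Only 33 members were tested by both kinds of feature, and none of them was called by both on all 24 arrays. A call by both was not possible for RPS28 and RPS29, which have no AV feature. Nor was it for RPL19, RPL30 and RPS13, which have no other feature. The share of all genes called by both kinds was not counted. Of the 9 calls over all features, only RPS28 and RPS29 were among the 5.

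RPS29, a small zinc-binding protein of the 40S head, has 3 features that were alike, with a median correlation of 0.734, and none of them is an AV feature. Its level was lowest in C10, at -0.27 ± 0.10, had a median of -0.03, and was highest in J980, at 0.72 ± 0.11 (SE, 3 arrays). J980 stands alone, since the next follicle, 8, lay at 0.18. Its F test gave an adjusted p of 0.0183 by limma, and its 3 features put J980 at 0.63, 0.79 and 0.61. On the single arrays J980 was above follicle 8 by 0.267, above 27 by 0.683 and above 26 by 1.09. RPS29 also ran against the family, with a correlation of -0.536 with the mean of the other members by features other than AV. With all features of the other members averaged, RPS29 had one of -0.765, and of -0.233 without J980. Its limma adjusted p was 0.31 without J980, 0.161 without the array of 26 and J980 and 0.134 without a dye term, so the call was lost in each.

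RPS28, another small 40S protein, has a single feature, not of the AV kind. It was lowest in follicle 8, at -0.22 ± 0.11, had a median of -0.03, and was highest in J980, at 0.46 ± 0.11, with a limma adjusted p of 0.044 over all features. The next follicle, C13, lay at 0.25, so J980 was less separate than for RPS29. Without J980 the adjusted p was 0.174.

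RPS2, a 40S protein at the entry of the mRNA channel, was not called over all features and was called by its 2 features other than AV (limma adjusted p 0.00912). It ran from -0.42 ± 0.10 in follicle 33 and -0.40 ± 0.11 in 27 through a median of 0.01 to 0.30 in C12 and 0.49 ± 0.11 in J980. Those 2 features put J980 at 0.73 and 0.24, and the mean of its 2 AV features put it at 0.11. RPS9, which lines the same channel, was called by its only feature of the other kind (limma adjusted p 0.018). It was lowest in follicle 33, at -0.47 ± 0.10, and in 8, at -0.39 ± 0.11, and highest in C12, at 0.39 ± 0.11. J980 lay in between, at 0.12. Its 2 AV features put J980 at -0.46 and -0.32 instead, and over all features its adjusted p was 0.113.

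RPLP2 is one of the acidic proteins of the 60S stalk, which brings elongation factors to the ribosome. By 2 features other than AV it was lowest in follicle 33, at -0.25 ± 0.09, and highest in J980, at 0.33 ± 0.10, with a limma adjusted p of 0.0409. H893 was nearly as high, at 0.28 ± 0.10. Its AV feature gave J980 a like level, 0.31, and 33 a like one, -0.36, so that both kinds of feature had the same extremes. Its partner RPLP1 was among the steadiest members over all features, from -0.13 to 0.11 with a limma adjusted p of 0.758. Of its 9 features, however, 8 are AV features. The only other feature of RPLP1 was highest in J980, like RPLP2, at 0.27 ± 0.14 (limma adjusted p 0.564).

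Most of the other calls rest on AV features. RPL31, which lies at the exit of the peptide tunnel, had the smallest p of the family (limma adjusted p 0.00107). It ran from -0.34 ± 0.09 in follicle 46 to 0.48 ± 0.08 in C35 and 0.59 ± 0.09 in J980. Only 1 of its 3 features carries the level in J980: it put J980 at 1.60, and the other 2 put it at 0.13 and 0.04. RPL27A was lowest in J980, at -0.71 ± 0.12, with the next follicle, C22, at -0.13. A single AV feature put J980 at -1.90, and its other 3 features at -0.20, -0.26 and -0.47. RPS13 was lowest in J980 as well, at -0.55 ± 0.13, by 1 feature at -1.07, while the other feature lay at -0.03. For these 3 genes the extreme level in J980 thus came from 1 feature, and the F test without that feature was not run. RPL31 was still called without J980 (limma adjusted p 0.0112), and C35 was then its highest follicle, at 0.53.

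RPL30 rests on AV features that were alike. It has 2, with a correlation of 0.663, and they put J980 at -1.19 and -1.33. The gene ran from -1.26 ± 0.23 in J980 and -0.59 in C13 to 0.64 ± 0.21 in follicle 33, with the largest SD between follicles of any member, 0.449, and a limma adjusted p of 0.0208. RPL14 ran from -0.61 ± 0.18 in C13 and -0.55 ± 0.18 in J980 to 0.50 ± 0.16 in C26. Its AV features put J980 between -1.25 and -0.10, and its other features at -0.40 and -0.19. By AV features RPL30 had a correlation of 0.824 with the mean of the other members, and RPL14 one of 0.888. The AV-feature mean of the family had one of 0.976 with that of the 585 other genes, so this direction is not particular to RPL30 and RPL14. RPL19, which forms a bridge to the small subunit, has 1 AV feature and ran from -0.56 ± 0.15 in H893 to 0.34 ± 0.15 in C12 (limma adjusted p 0.023). It is the one called member whose lowest follicle was H893.

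RPL37A, a zinc-binding 60S protein, shows how far the kinds of feature can part. Over both features it was lowest in J980, at -0.42 ± 0.09, and highest in C10, at 0.41 ± 0.08, with a limma adjusted p of 0.00977. Its AV feature put J980 at -0.98 and its other feature at 0.13, and the features had a correlation of -0.131. RPL38, a 60S protein needed for translation of Hox mRNAs in the mouse, likewise lay at -0.31 in J980 by its AV feature and at 0.39 by its 3 other features. RPS16 lay at -0.18 in J980 by 6 AV features and at 0.36 by its other one. For these genes the direction in J980 depends on the feature read.

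**Figure D3:**
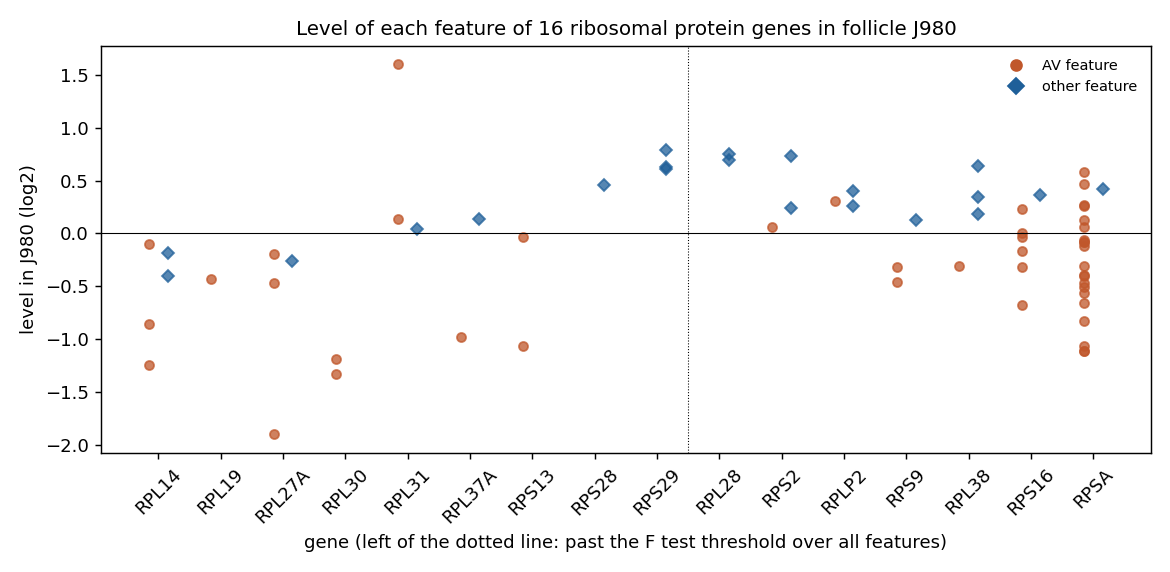
Level in J980 (log2, vertical axis) of each tested feature of 16 ribosomal protein genes, AV features as circles and the others as diamonds. The 3 diamonds of RPS29 lie together near 0.7, while the circles of RPSA spread from -1.11 to 0.59.

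J980 set the widest spread among the members. Over all features the levels of the 61 genes had an SD of 0.396 in J980 and of 0.121 to 0.187 in the other 15 follicles. Over all genes tested the SD was also widest in J980, at 0.334, against 0.187 to 0.243 in the others. In J980 21 members had their lowest and 9 their highest level of all follicles, 49.2% of the family, where 28.9% of all genes had an extreme there. By features other than AV the share was 38.8%, against 28.3% of other genes, with 9 members lowest and 10 highest. Follicle cell markers differed in J980 too, with all features averaged. The 9 granulosa genes had a mean of -0.791 there, carried by INHBA (-2.69), FST (-2.05) and GJA1 (-1.02), while FSHR, AMH, CYP19A1 and HSD17B1 lay between -0.06 and 0.09. The 5 genes of dividing cells had a mean of -0.736, with MKI67 at 0.26. The 4 theca genes had one of -0.317, with CYP11A1 (-1.06) and HSD3B1 (-0.63) low and INSL3 (0.19) and NR5A1 (0.23) above 0. The 10 genes of stroma and smooth muscle had one of -0.313, with 8 below 0 and VIM at 0.66. The 3 endothelial genes had one of 0.380, carried by CLDN5 at 1.44, while PECAM1 (-0.10) and VWF (-0.20) lay below 0. The 6 blood cell genes had one of 0.0922, with 3 below 0. Their part in the ribosomal values was not tested. Without J980 the F test called 4 members (6.56%), RPL14, RPL30, RPL31 and RPL7, where it called 7.09% of all genes.

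**Figure D4:**
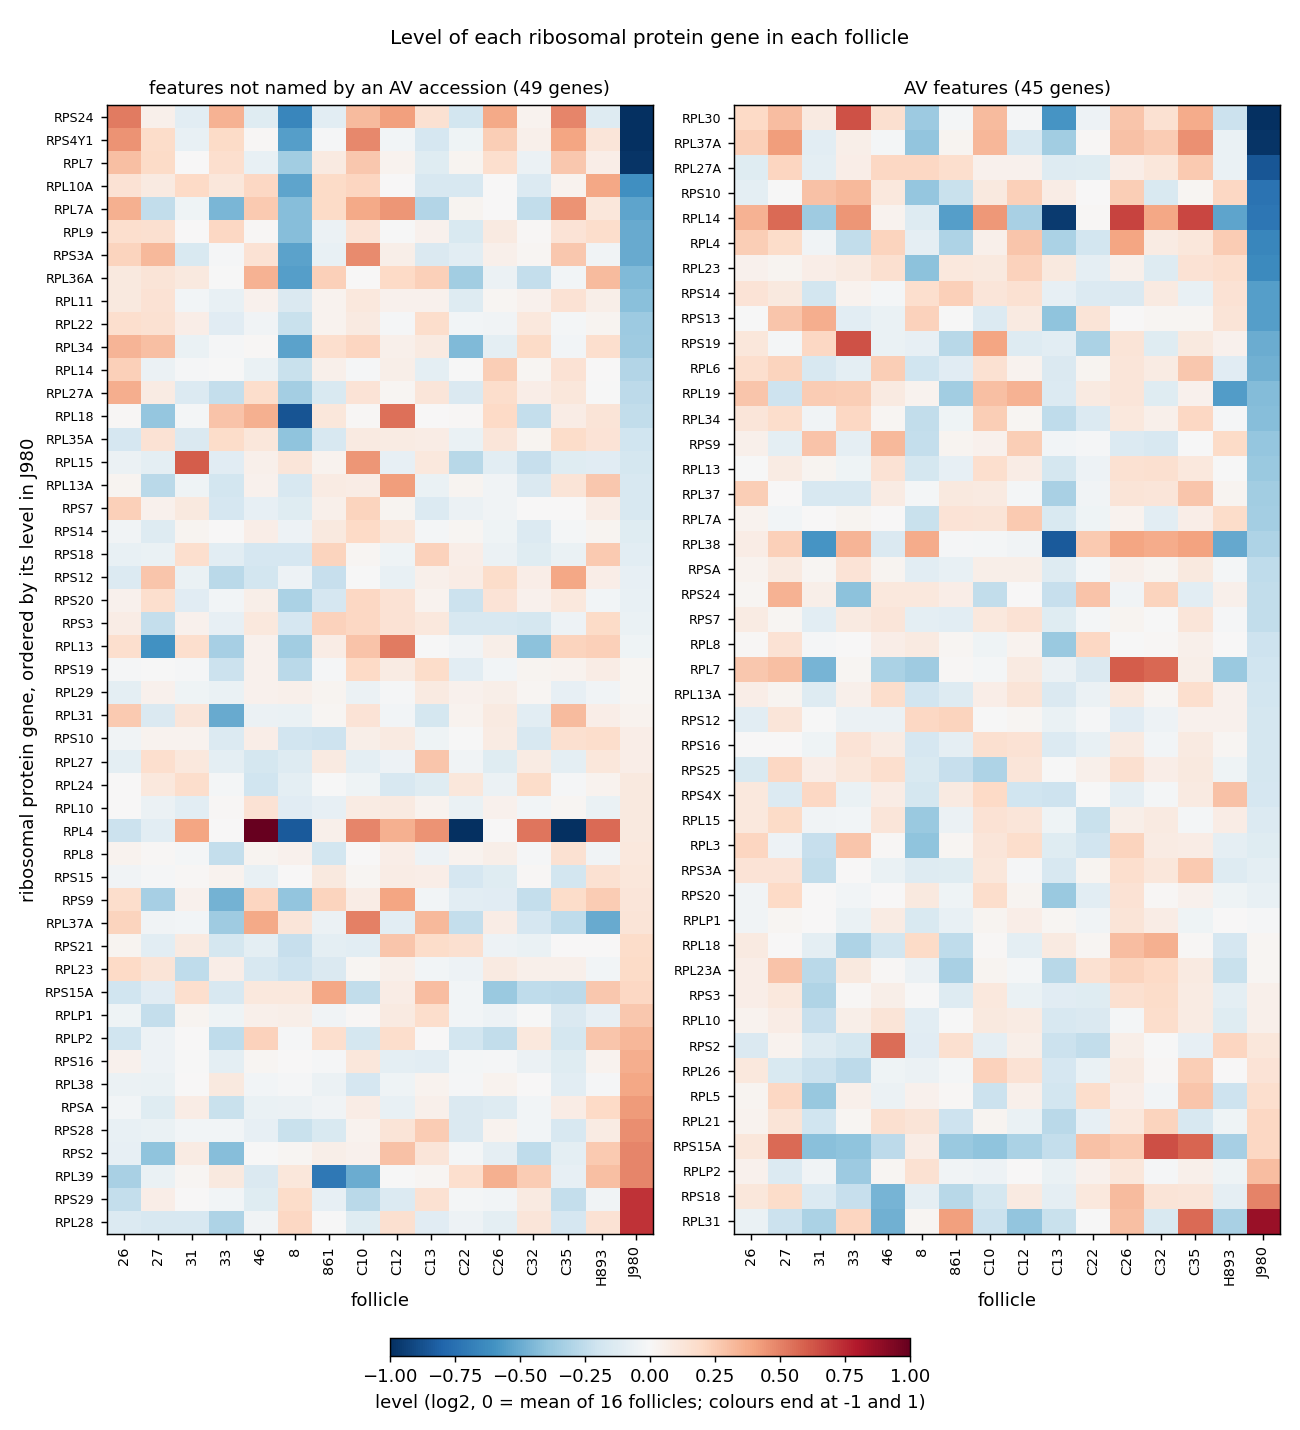
Level (log2, colour) of each ribosomal protein gene (rows, ordered by the level in J980) in each of the 16 follicles (columns), by features other than AV on the left and by AV features on the right. On the left the members part in J980 from RPS24 at -1.42 to RPL28 at 0.72, and on the right most members are low there.

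On the single arrays the pattern of J980 was seen against 2 of its 3 partners. By features other than AV, the log ratios of J980 over 27 and of J980 over 26, on which J980 carried different dyes, had a correlation of 0.898 across 48 member genes, against 0.381 across other genes. On both arrays 20 members were lower and 18 higher in J980. The ratio of J980 over 8 had a correlation of -0.087 with the first and of -0.264 with the second. Genes share arrays and are not independent replicates, so these values describe 3 arrays.

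Against follicle 8 both the members low on those arrays and the members high on them lay mostly above 0. The mean log ratio of J980 over 8 was 0.227 over the member features of this kind. A group of 11 genes lay below -0.5 on both arrays by features other than AV: RPL7, RPL7A, RPL9, RPL10A, RPL11, RPL22, RPL34, RPL36A, RPS3A, RPS4Y1 and RPS24. Each was read by 1 such feature, except RPL9, which has 2. RPL7, RPL7A, RPL34, RPS3A and RPS24 also have AV features, whose means lay below 0 on both arrays, for RPS24 at -0.475 and -0.524. AV features of other genes had means of -0.401 and -0.411 there. Of the 11 genes, by features other than AV, 9 lay above 0 on the array with 8. So did 66 of the 368 other genes that were below -0.5 on both arrays. RPS24, a 40S protein mutated in Diamond-Blackfan anaemia, was at -1.59 against 27, at -2.51 against 26 and at 0.149 against 8. RPS4Y1, which is on an autosome in cattle despite its name, was at -1.99, -1.99 and 0.186. RPL7 was at -1.58, -1.33 and -0.207. Against its other partners follicle 8 was not low by a like amount. RPS24 was at -0.0743 for 8 over C32 and 0.0636 for 8 over C22, and RPL7 was at -0.0931 and -0.186.

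A group of 8 genes lay above 0.4 on both arrays: RPL28, RPL38, RPL39, RPLP1, RPS2, RPS28, RPS29 and RPSA. All but RPLP1, which was at -0.109, lay above 0 on the array with 8 too, as did 183 of the 299 other genes that were above 0.4 on both arrays. RPL39, RPLP1, RPS28 and RPSA were each read by 1 feature other than AV. RPL28, a 60S protein, was at 0.999 against 27, at 0.941 against 26 and at 0.248 against 8, and both its features put J980 high, at 0.69 and 0.76. Its F test missed the threshold (limma adjusted p 0.0777 by these features). RPSA was at 0.524, 0.528 and 0.377. The ratios against 27 and 26 were high by the choice of these genes, so only the array with 8 adds to them. There RPL39 lay at 0.0263, with an array error of 0.39, RPS2 at 0.0919 and RPL38 at 0.217. These values are under the mean of 0.227 over the member features of this kind on that array.

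**Figure D5:**
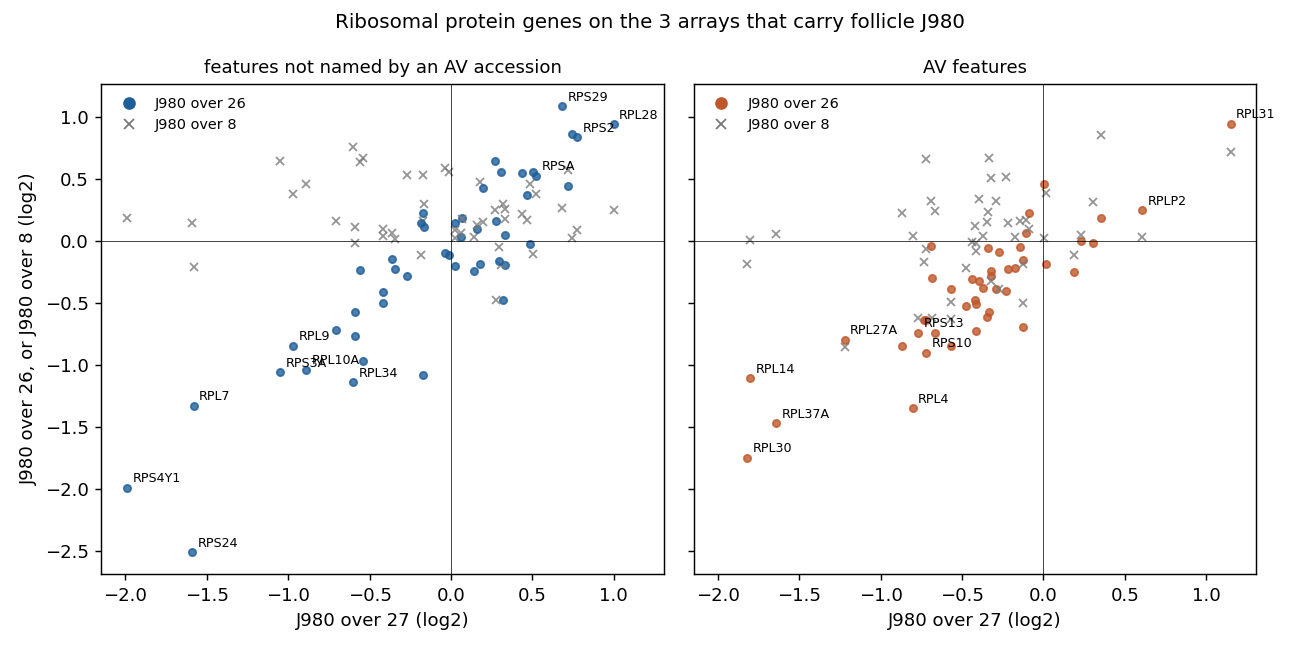
Log2 ratio of J980 over 26 (filled points) and of J980 over 8 (crosses), on the vertical axis, against that of J980 over 27 (horizontal axis) for each ribosomal protein gene, by features other than AV on the left and by AV features on the right. The filled points rise from RPS24 and RPS4Y1 to RPL28 and RPS29, and the crosses do not follow them.

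The array of J980 and 8 was singled out after its values were seen. Without it the array error of the family mean over all features fell to 0.0238 from 0.0892, where leaving out any other array gave 0.0788 to 0.0953. J980 then lay at -0.258 ± 0.021, C13 at -0.086 ± 0.017, C26 at 0.112 ± 0.016 and follicle 8 at 0.022 ± 0.023. The low position of follicle 8 thus rests on that array. Over all features the F test then called 18 of 61 members, 8 of them among the 9 above, with 12.4% of all genes called. Of the 18, 15 were lower in J980 than the mean of the follicles.

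By features other than AV, 11 of 48 members were called without that array, where 11.7% of all genes were. RPL7, RPL9, RPL10A, RPL11, RPS3A, RPS4Y1 and RPS24 were low in J980, with RPS24 at -1.97 ± 0.15 and RPS4Y1 at -1.92 ± 0.11. RPS29, at 0.85 ± 0.10, RPS2, at 0.61 ± 0.10, RPL37A, at 0.42 ± 0.12, and RPS9, at 0.17 ± 0.13, lay above the mean there. The 40S and 60S means kept a correlation of 0.813, and of 0.771 without J980. The mean of the 49 genes was then lowest in J980, at -0.144 ± 0.039, and 8 lay at -0.060 ± 0.043. By AV features 21 of 45 members were called, where 49.8% of all genes with such features were. Of these, RPL7, RPL37A, RPS9 and RPS24 were called by both kinds of feature. In J980 the AV features put RPL7 at -0.51 ± 0.11 and RPS24 at -0.36 ± 0.17, low as by the others, and RPL37A at -1.37 ± 0.11 and RPS9 at -0.57 ± 0.11, opposite in sign to the others.

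Most members used as reference genes for PCR did not pass the F test over all features, like most genes, of which 11.3% passed. RPL13A, with 13 features, ran from -0.19 in follicle 8 to 0.16 in C35, with an SD of 0.120 and an adjusted p of 0.377 by limma. RPS18 ran from -0.36 in 46 to 0.30 in J980 (limma adjusted p 0.214), and its features had a median correlation of -0.122. RPS15A ran from -0.31 in C10 to 0.23 in 27 (limma adjusted p 0.538), and its 2 features ran against each other, at -0.529. RPL4, whose protein reaches into the peptide tunnel, ran from -0.59 in C22 to 0.57 in 46, yet its array error of 0.378 was larger than its SD of 0.326 and the adjusted p was 0.341 by limma. RPS9 ran from -0.29 in 8 to 0.30 in C12 (limma adjusted p 0.113), and it passed the test by its feature other than AV, as given above. Of the 7 such genes looked for, RPL19 alone passed over all features, by its only feature, an AV feature, and RPLP0 had no feature of its own. The smallest SDs of the family over all features belonged to RPL29 (0.0576), RPLP1 (0.0641) and RPS16 (0.0890). None of these passed the F test, which adds little, since they were picked for a small SD. RPLP1 is the average of 9 features with a median correlation of 0.088, and RPS16 that of 7 with one of -0.026. A small SD of such an average does not show that each feature was steady. RPL29 has 1 feature.

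The largest SDs after RPL30 belonged to RPS4Y1 (0.420), RPL14 (0.349), RPL4 (0.326) and RPL39 (0.312). RPL39, a very small 60S protein of the exit tunnel, ran from -0.71 ± 0.26 in 861 to 0.49 ± 0.26 in J980, with a limma adjusted p of 0.359. This range did not stand out from array error by the F test. RPL9 had the best agreement between features of the whole family, with a correlation of 0.740, and neither feature is an AV feature. It ran from -0.51 ± 0.22 in J980 to 0.21 ± 0.19 in 33, with a limma adjusted p of 0.573.

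Genes that work with the ribosomal proteins moved with them in part. Translation factors whose mRNAs carry the same pyrimidine-rich start had 2 of 20 called over all features (10%, against 11.3% of all genes) and 4 of 20 by features other than AV, and their mean had a correlation of 0.571 with that of the ribosomal proteins by features other than AV (0.573 without J980). EEF2, the translocation factor, ran from -0.41 ± 0.13 in 31 to 1.27 ± 0.14 in 46 (limma adjusted p 0.00343), and EIF3E from -0.28 ± 0.09 in C13 to 0.57 ± 0.18 in J980 (limma adjusted p 0.0126). Of genes of ribosome biogenesis 11 of 79 were called (13.9%, against 11.3% of all genes), and their mean had a correlation of 0.096 with the family by features other than AV. NOP56, a core protein of snoRNA particles, was lowest in J980, at -0.95 ± 0.11, and highest in C22, at 0.52 ± 0.10 (limma adjusted p 0.000749). GNL3, a nucleolar GTPase, was lowest in J980 too, at -0.58 ± 0.09 (limma adjusted p 0.00367).

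Of the mTOR and translation control genes 2 of 19 were called (10.5%, against the same 11.3%). EIF4A1, an mRNA helicase, ran from -0.77 ± 0.11 in C13 to 0.53 ± 0.11 in 31 (limma adjusted p 0.00104), and EIF4E, the cap-binding factor, from -0.34 ± 0.11 in C10 to 0.48 ± 0.12 in J980 (limma adjusted p 0.0448). Of the paralogues that the rule left out 1 of 5 was called, RPL22L1, from -0.55 ± 0.13 in J980 to 0.58 ± 0.13 in C35 (limma adjusted p 0.019), and RPL7L1 was at -0.76 ± 0.26 in J980 (limma adjusted p 0.118). By AV features 1 of 2 left-out paralogues was called, and by other features 0 of 3. FAU, the ubiquitin-like fusion that yields a 40S protein, was highest in J980, at 0.24 ± 0.09 (limma adjusted p 0.181). It has 1 feature, an AV feature. Mitochondrial ribosomal proteins were called in 18 of 66 (27.3%, against 11.3% of all genes), and their mean had a correlation of 0.215 with that of the cytosolic family by features other than AV.

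The genes most like the ribosomal mean over all features were led by AV features. The 8 with the highest correlation over 16 follicles were UBE2H (0.91), LOC782776 (0.893), ASRGL1 (0.893), MXRA7 (0.891), MRPL9 (0.89), LOC784208 (0.879), LOC507271 (0.876) and NCAPH (0.875). Each has at least 1 AV feature, and for UBE2H, LOC782776, LOC507271 and NCAPH all features are of that kind. RefSeq lists LOC782776, LOC784208 and LOC507271 as pseudogenes. Markers of stroma and smooth muscle repeat this: the mean of 10 genes had a correlation of 0.826 with the ribosomal mean over all features, of 0.942 by 7 genes with AV features and of 0.247 by the features other than AV. Granulosa markers had one of -0.135 over 9 genes, theca markers 0.456 over 4, endothelial markers -0.231 over 3, blood cell markers -0.295 over 6 and markers of dividing cells 0.008 over 5, each by features other than AV. With few markers per list these values describe the 16 follicles only.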

How the data were processed

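RNA of 16 follicles was isolated with an RNAqueous-Midi kit and labelled with dendrimers, and the 24 slides were read by an Axon instrument with GenePix Pro 4.0.1.12, per the labels' protocols. The authors deposited log ratios, read here as log2: their largest size, 6.32, is beyond what log10 allows, and natural logs are possible. Cy5 over Cy3 is likely from the labels. How spots were filtered, background-corrected and normalized remains not given in the sources used here. Array number limits the precision. Columns of per-sample values left unused numbered 0.

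Arrays were centred on their medians. Of 17418 features 13605 have 1 symbol, 829 several (53 with a ribosomal protein) and 2984 none, by the platform annotation, and 13575 matched RefSeq (ARS-UCD2.0) by gene ID. Features of a gene were averaged, and genes on at least 20 arrays were fitted with follicle effects and a dye term, with up to 8 residual degrees of freedom. Moderation and F tests used limma 3.58.1 (R 4.3.3) and were tested on simulated data; figures used Python 3.11.15 and matplotlib 3.10.9.

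The members and lists were chosen with earlier results of these data known. Named genes were members past either F test, the 5 of largest and 3 of smallest SD, those whose features agree best and least, PCR reference genes, the 2 of smallest p in each related list, and the 8 genes most like the family mean. Other members described by kind of feature or by the J980 arrays were chosen after their values were seen. The settings varied were the centring, scale, array minimum, dye term, moderation, features per gene, J980 and each array in turn and, after the data were seen, the kind of feature.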

Additional observations from a re-analysis of the deposited data

How the results depend on the processing

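The limits are few arrays, an unstated log base and direction, and no signal over background. The 9 called members became 4 without a dye term, 4 without J980 and its arrays, and 5 with AV features left out. The share of all genes called, 11.3% in the main fit, was 7.09% without J980 and 11.3% with AV features left out. For most other settings that share is not given here, so the counts alone do not set the family apart from other genes. Without moderation 6 were called, of which RPL31, RPL37A and RPS29 were among the 9 and RPL10, RPL27 and RPS20 were not. With arrays on one scale 9 were called, with RPL3 and RPL7 in place of RPL27A and RPS28. Leaving out single arrays gave 3 to 18. Of the 6 members that differ from the family median, 3 were left without a dye term or without AV features, 10 were found with 1 feature per gene, and single arrays gave 2 to 16: 2 without 31 and C13 or 31 and C10, 3 without C13 and 46, C35 and 27, C32 and C26, 861 and C10, C22 and C26, 33 and C12, 33 and C13, C10 and 26, 46 and 861, H893 and 861, C12 and 46, C26 and 33 or 26 and J980, 10 without 27 and C32, and 16 without J980 and 8. The SD of the family mean, 0.0706, became 0.0608 with arrays on one scale, 0.0838 with 1 feature per gene, 0.0568 without J980 and 0.112 by AV features alone, with 0.0603 to 0.0941 over single arrays left out. The median correlation of a member with the others, 0.438, became 0.263 with 1 feature per gene and 0.53 by AV features alone, with 0.327 to 0.564 over single arrays. The SD of the 60S minus 40S difference, 0.0441, became 0.0408 on one scale, 0.0404 without a dye term, 0.0884 with 1 feature per gene, 0.0519 with medians over members, 0.038 without AV features and 0.0791 by AV features alone, with 0.0407 to 0.0503 over single arrays. RPS16 turned its pattern without AV features (adjusted p 0.339 by limma). RPS15A turned its pattern without the array of C10 and 26 (adjusted p 0.584 by limma), with 0.416 to 0.686 over single arrays left out. With 1 feature per gene 12 members were called, 3 of them among the 9. No paired analysis was possible because the labels give no replicate numbers that follicles share. The causes were not tested.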
